A study of Homo sapiens with 12 samples.

Results

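The tumour necrosis factor (TNF) ligands and receptors were described across 12 RNA sequencing libraries of human leukaemia cells. Members were taken by symbol alone, as every row of the expression table named TNFSF or TNFRSF with a number and at most 1 further letter. This gave 32 of 58191 rows, of which 11 were ligands and 21 were receptors. Family genes with symbols of another form, such as TNF, FAS, CD40 and LTBR, are given separately. Values are FPKM, fragments scaled by transcript length and by library size, so that levels can be compared between genes.

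The 4 groups held 3 libraries each. K562 control and K562 EVI1 libraries came from K562, a line derived from a patient with chronic myeloid leukaemia, either wild type or overexpressing EVI1. The other 6 libraries carry the cell line label MOLM14, an acute monocytic leukaemia line, and are again wild type or EVI1 overexpressing. The gene MECOM encodes EVI1, a DNA-binding zinc finger protein. The labels do not say how EVI1 was introduced, which promoter drives it, whether an empty vector was used in control cells, or whether a clone or a pool was sequenced, and no library carries a drug label. The labels' RNA extraction protocol names intestine of mice, whereas every sample is labelled as a human cell line.

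TNF ligands are trimeric proteins, mostly made at the cell surface, that cluster their receptors. Receptors with a death domain recruit FADD and caspase-8 and can trigger apoptosis, whereas receptors without one bind TRAF adaptors and signal mainly to NF-kB. Decoy receptors bind a ligand without passing on a death signal. In blood, the family is known for control of B cell survival, T cell costimulation and the killing of tumour cells by TRAIL.

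Levels of MECOM rose under both labels, from 12.2 ± 2.08 to 23.99 ± 1.94 FPKM in K562 (mean ± SD, n = 3 each; limma adjusted p = 3.4e-04) and from 9.08 ± 0.562 to 17.6 ± 0.617 FPKM in the labelled MOLM14 libraries (limma adjusted p = 6.5e-05). Columns labelled MOLM14 matched the gene names in the first 5510 rows alone, so 14 of the 32 members, 6 ligands and 8 receptors, have values under both labels, and 18 have values in K562 alone. Within those rows the labelled MOLM14 control means followed the K562 control means with a Pearson r of 0.973 across genes, beside 0.978 between K562 control and K562 EVI1. The defining genes went against the MOLM14 label: FLT3, HOXA9 and CTSG were at 0 in all 3 control libraries, while all 5 usable erythroid markers were at 1 FPKM or more, with summed levels of 446 to 470 FPKM in control and 660 to 682 FPKM in EVI1 libraries. GATA1, the erythroid master regulator, had a mean of 113 FPKM in the labelled control. Of 10 usable monocytic markers 5 reached 1 FPKM there: LYZ, PTPRC, SPI1, CD33 and CSF3R. Their means in the labelled control were 80.9, 45.7, 44.2, 34.8 and 2.33 FPKM. K562 control had lower means, 21.8, 7.19, 28.8, 24.7 and 0.582 FPKM, and levels were not tested between labels. These libraries are therefore called labelled MOLM14 throughout. Steps between low FPKM values gave depths of 39100000, 69800000 and 61300000 fragments for the K562 control libraries. The K562 EVI1 libraries had 81900000, 60100000 and 76400000 fragments, and no depth was estimated for the others. No label speaks of separate cultures, so every p-value measures the spread between these libraries, which may be technical.

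The promoters of the ligand and the receptor that changed most in K562, and of the receptor gene beside the latter, are printed to show the sequences behind these rows. They are RefSeq windows of 300 bases on GRCh38.p14, 250 before and 50 from the annotated start, with capitals marking motif matches on either strand. The window of TNFSF13B is chr13:108269379-108269678 on the plus strand, that of TNFRSF8 is chr1:12063053-12063352 on the plus strand, and that of TNFRSF1B is chr1:12166741-12167040 on the plus strand.
TNFSF13B: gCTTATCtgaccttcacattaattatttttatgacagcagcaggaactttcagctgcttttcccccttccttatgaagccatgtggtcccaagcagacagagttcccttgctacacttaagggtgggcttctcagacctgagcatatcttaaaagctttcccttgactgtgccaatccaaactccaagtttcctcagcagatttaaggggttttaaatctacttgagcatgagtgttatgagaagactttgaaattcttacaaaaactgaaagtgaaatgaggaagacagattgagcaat
TNFRSF8: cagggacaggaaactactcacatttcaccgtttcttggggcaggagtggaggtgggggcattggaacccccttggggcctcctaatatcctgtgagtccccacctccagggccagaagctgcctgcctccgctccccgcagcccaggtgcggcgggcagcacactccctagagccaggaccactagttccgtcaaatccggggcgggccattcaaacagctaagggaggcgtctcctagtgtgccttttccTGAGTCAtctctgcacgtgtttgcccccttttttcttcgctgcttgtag
TNFRSF1B: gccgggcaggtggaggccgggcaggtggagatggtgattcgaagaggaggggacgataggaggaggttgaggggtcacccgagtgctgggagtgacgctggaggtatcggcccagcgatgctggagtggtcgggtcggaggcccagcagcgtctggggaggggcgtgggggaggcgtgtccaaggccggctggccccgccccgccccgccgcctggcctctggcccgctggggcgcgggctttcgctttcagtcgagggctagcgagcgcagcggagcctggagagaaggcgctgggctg
The capitals in TNFSF13B are the reverse complement of GATAAG, known as the motif of GATA factors, at bases -249 to -244 from the start. Those in TNFRSF8 match TGANTCA, the AP-1 motif, at bases 1 to 7. A second annotated start of TNFSF13B and the TNFRSF1B window held no match. Of 35116 RefSeq promoters 6.36% held GATAAG and 7.71% held TGANTCA, beside 4 and 5 of the 26 promoter windows found for 21 members. GAAGATGAG, a motif of the second EVI1 zinc finger domain, was in 0.347% of all promoters and in 0 of these 26. CCGGAAG, an ETS motif, was in 10.3% and in 2 of 26, and a degenerate NF-kB site in 11.3% and in 8 of 26. TNFSF14 has a pair of nearly identical windows that share their matches and count separately here, so the 2 windows with CCGGAAG are 1 site of 1 gene. A match describes the letters alone.

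Under control conditions K562 expressed 11 of the 32 members at a mean of 1 FPKM or more, 3 ligands and 8 receptors. TNFRSF1B, the TNF receptor without a death domain, had the highest mean, 29.98 ± 4.47 FPKM. It was followed by TNFRSF12A, the receptor of TWEAK, at 25.2 ± 2.10 FPKM and by the death receptors TNFRSF10B, TNFRSF1A and TNFRSF10A at means of 23.96, 20.7 and 19.0 FPKM. TNFSF9, a ligand that costimulates T cells, had 16.6 ± 1.19 FPKM. Neighbours in this order overlapped in their ranges down to TNFSF9. TNFRSF8, also called CD30, stood apart below them at 11.5 ± 0.307 FPKM, and TNFRSF21, TNFRSF14, TNFSF13 and TNFSF13B followed between 3.32 and 1.06 FPKM. The same ranking in the labelled MOLM14 control, over the 14 usable members, placed TNFRSF10B first at 39.5 ± 3.07 FPKM and TNFRSF1A next at 30.4 ± 2.54 FPKM. As the columns of the 2 labels may have been normalised apart, levels were not tested between them.

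**Figure D1:**
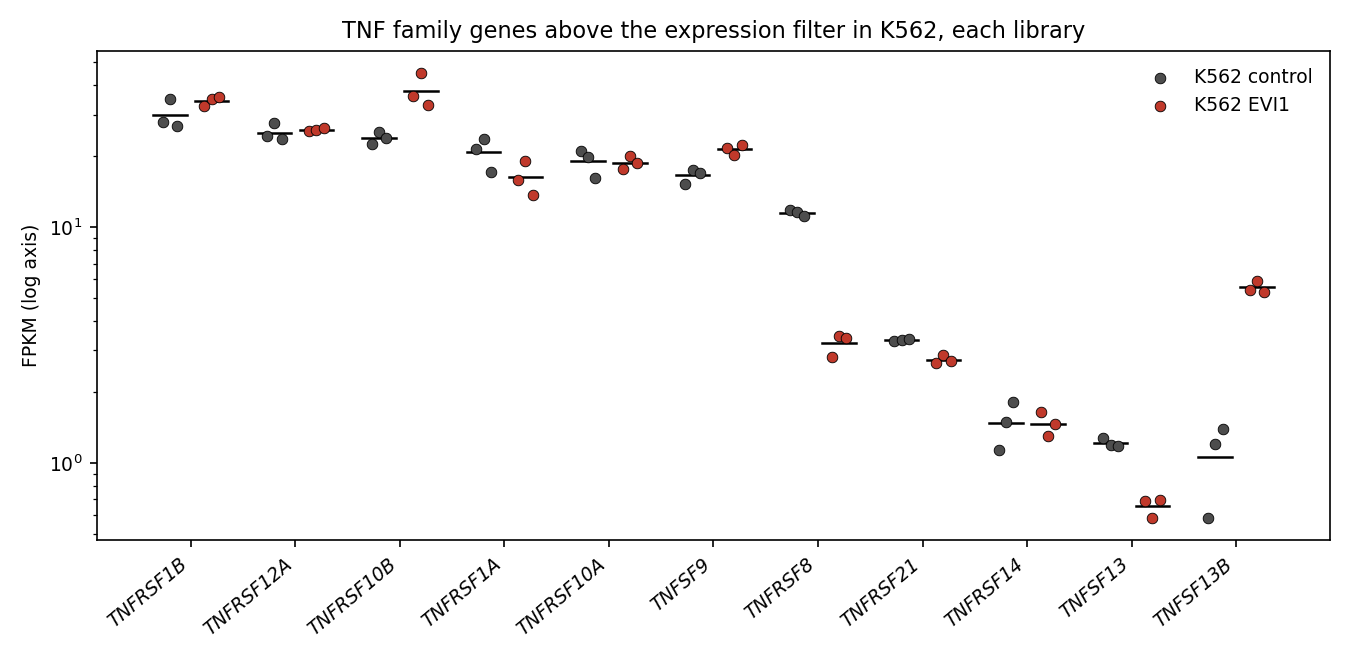
FPKM on a log axis of the 11 members tested in K562, with 1 point per library (grey, control; red, EVI1; n = 3 each) and a line at the mean. TNFSF13B rises from a mean of 1.06 to 5.55 FPKM and TNFRSF8 falls from 11.5 to 3.21 FPKM, whereas TNFRSF10A, TNFRSF12A and TNFRSF14 overlap.

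With EVI1, the ligand TNFSF13B rose and the receptor TNFRSF8 fell most among the members tested in K562. Of the 11 members with at least 1 FPKM in at least 3 of the 6 libraries, 5 passed the test (limma adjusted p under 0.05), 3 higher and 2 lower, which is 45.5% beside 51.9% of all 13799 genes tested. TNFSF13, 1 of the 2 lower, entered the test through its control libraries alone. By direction the background was 28.2% higher and 23.7% lower, that is 3898 and 3265 genes, and 4110 and 2178 genes after rescaling all libraries to the same FPKM sum. With TMM scaling, quantile normalisation or array weights 7 of the 11 were called, 3 higher and 4 lower, beside 7491, 7452 and 8454 of all 13799 genes. The median log2 fold change of the 11 was -0.00, beside 0.01 for all genes. The groups did not overlap for 6 of the 11, beside 60.6% of all genes tested. Fold changes are differences of mean log2(FPKM + 1), which understates changes of low genes.

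TNFSF13B, on chromosome 13 from 108251240 to 108308484 (GENCODE 29, GRCh38), encodes BAFF, a survival factor of B cells. Its level was 0.584, 1.2002 and 1.40 FPKM in the K562 control libraries and 5.41, 5.91 and 5.32 FPKM in the EVI1 libraries. All EVI1 libraries lay above all control libraries, and the ratio of the means was 5.23. On the log2 scale TNFSF13B rose by 1.69 (SE 0.16, 95% interval 1.33 to 2.05, limma adjusted p = 5.9e-05). Its receptors stayed low: TNFRSF13C, the BAFF receptor, had means of 0.723 and 0.731 FPKM, TNFRSF13B was at 0 in all 6 libraries, and TNFRSF17, a receptor of plasma cells, had means of 0.0197 and 0.0376 FPKM.

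TNFSF9 had 15.2, 17.5 and 16.9 FPKM in control and 21.7, 20.3 and 22.3 FPKM in EVI1 libraries of K562. The groups did not overlap, and TNFSF9 rose by 0.35 (SE 0.08, limma adjusted p = 0.00752). Its receptor TNFRSF9 was below the filter, at means of 0.160 and 0.103 FPKM. TNFSF13, which encodes APRIL, a relative of BAFF, had 1.27, 1.19 and 1.18 FPKM in control and 0.688, 0.584 and 0.694 FPKM in EVI1 libraries. TNFSF13 fell by 0.42 (SE 0.10, limma adjusted p = 0.00836), and it passed the filter through its control libraries alone. TNFSF12, which encodes TWEAK, lies 0.4 kb before TNFSF13 on chromosome 17 and shares a readthrough gene with it, which was at most 0.0553 FPKM. TNFSF12 had means of 0.774 and 0.543 FPKM.

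Among the death receptors of K562, TNFRSF10B rose, while TNFRSF10A, TNFRSF1A and TNFRSF21 did not pass the test. TNFRSF10B and TNFRSF10A are the receptors of TRAIL that signal death, and lie on chromosome 8 at 23020133 to 23069179 and 23190452 to 23225126 (GENCODE 29, GRCh38, minus strand). TNFRSF10B had 22.5, 25.3 and 23.99 FPKM in control and 35.8, 45.0 and 33.0 FPKM in EVI1 libraries. Every EVI1 library was above every control library, and TNFRSF10B rose by 0.63 (SE 0.12, 95% interval 0.37 to 0.90, limma adjusted p = 0.00214). TNFRSF10A had 21.0, 19.8 and 16.2 FPKM in control and 17.6, 20.02 and 18.8 FPKM in EVI1 libraries, groups that overlapped (log2 fold change -0.01, 95% interval -0.25 to 0.23, limma adjusted p = 0.940). RHOBTB2 overlaps TNFRSF10B on the other strand at means of 1.06 and 1.78 FPKM, and TNFRSF10A is overlapped by AC100861.1 at means of 11.8 and 16.8 FPKM and by TNFRSF10A-AS1 at 4.46 and 1.94 FPKM. As use of strand is not given in the labels, reads of such pairs cannot be told apart.

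TRAIL itself, encoded by TNFSF10, was below the filter, at 0.715, 0.269 and 0.222 FPKM in control and 0.0496, 0.150 and 0.208 FPKM in EVI1 libraries of K562. The decoy TNFRSF10C had means of 0.0879 and 0.298 FPKM. The other decoy, TNFRSF10D, was at 0 in all control libraries and at most 0.0261 FPKM with EVI1. Both TRAIL death receptors were thus measured at levels far above their ligand and decoys in every K562 library.

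TNFRSF1A, the TNF receptor with a death domain, had 21.3, 23.7 and 17.2 FPKM in K562 control and 15.9, 19.1 and 13.7 FPKM in EVI1 libraries. The groups overlapped, and the change of -0.33 missed the threshold (SE 0.14, 95% interval -0.67 to -0.00, limma adjusted p = 0.0831). TNFRSF1A passed the threshold in 7 of 17 settings, among them TMM scaling (limma adjusted p = 0.0394), quantile normalisation (0.0353), array weights (0.00408, with a change of -0.50), the fit of all 12 libraries (0.0313), and leaving out K562 control replicate 3 (0.0261) or EVI1 replicate 2 (0.0329). TNFRSF1B had 27.9, 35.1 and 26.9 FPKM in control and 32.6, 35.0 and 35.5 FPKM in EVI1 libraries, with overlap (log2 fold change 0.20, 95% interval -0.04 to 0.44, limma adjusted p = 0.143). Without K562 control replicate 2 the TNFRSF1B change was 0.32 (limma adjusted p = 0.0194). TNFRSF21, a death receptor known from the nervous system, had 3.28, 3.33 and 3.35 FPKM in control and 2.64, 2.87 and 2.70 FPKM with EVI1. Its groups did not overlap, and the log2 fold change of -0.21 missed the threshold (SE 0.09, limma adjusted p = 0.0840), which it passed in 4 of 16 settings: TMM scaling (0.0325), quantile normalisation (0.00535, with a change of -0.40), no trend (0.0440) and array weights (0.0367).

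TNFRSF8 showed the largest fall among the members. CD30, its product, is a marker of activated lymphocytes and of Hodgkin lymphoma. It had 11.8, 11.6 and 11.2 FPKM in K562 control and 2.80, 3.45 and 3.38 FPKM in EVI1 libraries, so that the mean was 3.58 times lower with EVI1. TNFRSF8 fell by 1.57 on the log2 scale (SE 0.10, 95% interval -1.79 to -1.35, limma adjusted p = 6.6e-06). Its ligand TNFSF8 was at 0 in all 12 libraries. TNFRSF8 ends 22.8 kb before TNFRSF1B on chromosome 1 with no protein coding gene starting between them, and TNFRSF1B gave no call in K562.

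TNFRSF12A had 24.4, 27.5 and 23.6 FPKM in K562 control and 25.5, 25.7 and 26.3 FPKM in EVI1 libraries, with overlap (log2 fold change 0.04, 95% interval -0.14 to 0.22, limma adjusted p = 0.698). TNFRSF14, the receptor of LIGHT, had 1.14, 1.49 and 1.82 FPKM in control and 1.64, 1.31 and 1.46 FPKM with EVI1, also with overlap (log2 fold change -0.00, limma adjusted p = 0.994).

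The remaining 21 members were below the filter in K562. Listed at 0 were 8 symbols in every control library and 6 in every EVI1 library, counting TNFRSF6B, whose entries were vanishingly small. TNFRSF11B, TNFRSF13B, TNFRSF6B, TNFSF11, TNFSF18 and TNFSF8 made up the latter. With no filter on low values, 27 members had an entry above 0 in K562, counting TNFRSF6B. Of these 9 were called, 6 higher and 3 lower, beside 24.1% of all 32467 genes, 4787 higher and 3030 lower. The 4 additional ones were TNFSF14, which encodes LIGHT and had means of 0.147 and 0.588 FPKM, TNFRSF25, a death receptor of T cells, at 0.0243 and 0.238 FPKM, TNFRSF11A, the osteoclast receptor RANK, at 0.0406 and 0.462 FPKM, and TNFRSF4, a T cell costimulator, at 0.0701 and 0.0123 FPKM. TNFRSF4 was lower with EVI1 and the others were higher (limma adjusted p = 0.00456 for TNFSF14, 0.00172 for TNFRSF25, 0.0349 for TNFRSF11A and 0.0495 for TNFRSF4). TNFRSF18, TNFRSF19, TNFSF15 and TNFSF4 had means of at most 0.130 FPKM in both groups.

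**Figure D2:**
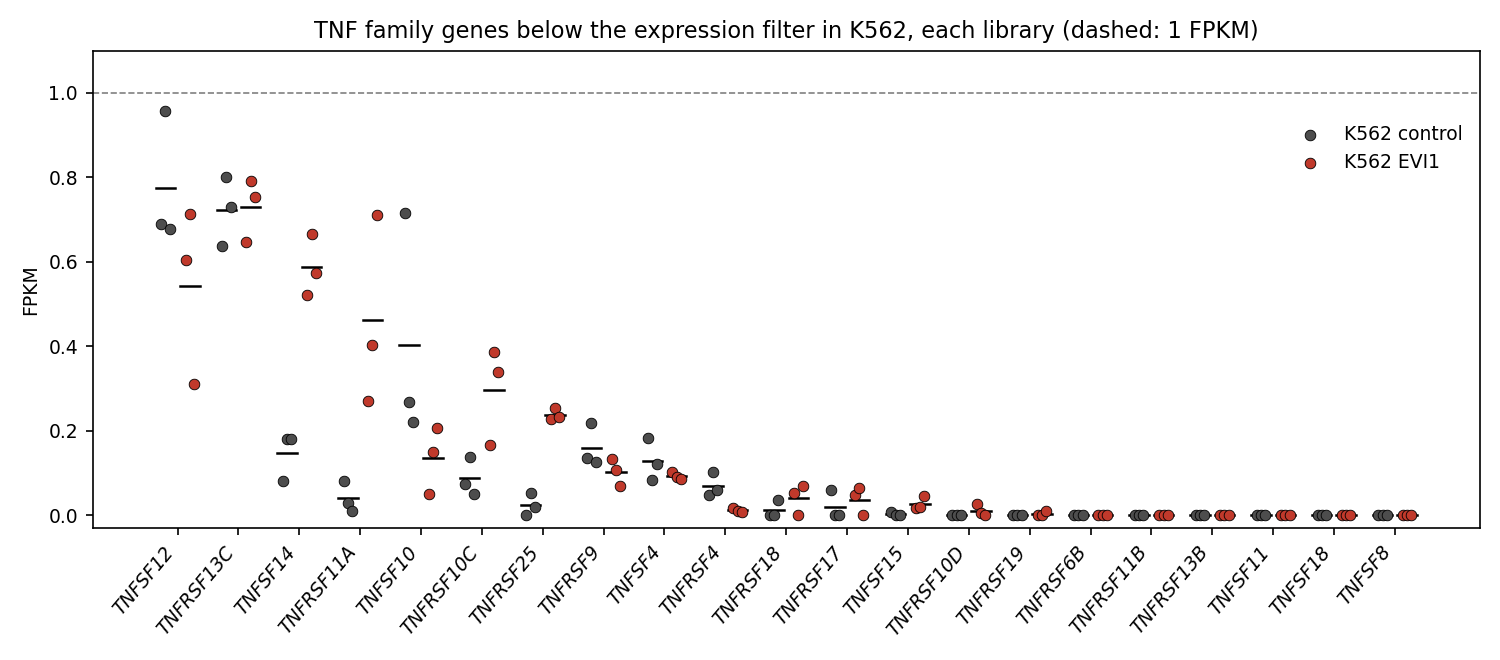
FPKM on a linear axis of the 21 members below the filter in K562, with 1 point per library (grey, control; red, EVI1; n = 3 each), a line at the mean and a dashed line at 1 FPKM. TNFSF14, TNFRSF11A and TNFRSF25 separate upwards with EVI1 at levels under 1 FPKM, and symbols at the right lie at 0.

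Some markers of other blood and stromal cells moved in K562 with the same groups. The summed level of 15 T and NK cell markers was 44.9 to 51.4 FPKM in control and 111 to 118 FPKM in EVI1 libraries. All 4 that were tested, CD3D, TRAC, TRBC2 and PRF1, rose, but TRAC passed the filter through its EVI1 libraries alone. The other markers of this list were below the filter, with means that went both ways and CD8A at 0 in all 6 libraries. Mean levels of at least 1 FPKM were seen for 9 of 23 monocytic markers in control and for 7 with EVI1, with sums of 160 to 186 FPKM and 188 to 216 FPKM, and FLT3, HOXA9, HOXA10 and CTSG at 0 throughout. Of the 8 monocytic markers tested 3 rose and 2 fell, or 62.5% beside 51.9% of all genes tested. CD33, PTPRC and MEIS1 were higher with EVI1, while LYZ and SPI1 were lower. The 8 B cell markers summed to 5.53 to 7.29 FPKM and 6.23 to 6.49 FPKM, with MS4A1 at 0. Sums of 9 stromal markers went from 4.11 to 8.37 FPKM in control to 31.7 to 37.2 FPKM with EVI1, with PDGFRA and FAP at 0 in all 6. Most of the EVI1 sum was COL1A1, with means of 1.74 and 20.9 FPKM, and COL1A2, with 2.82 and 12.3 FPKM. DCN went the other way, from 1.32 to 0.186 FPKM, with 3.49 FPKM in control replicate 3. Means of at least 1 FPKM were seen for 3 of the 9 in control and 2 with EVI1. The 7 endothelial markers summed to 6.59 to 7.96 FPKM and 2.14 to 3.09 FPKM. Their fall was that of PECAM1, from a mean of 6.76 to 1.51 FPKM, while TIE1 went from 0.352 to 1.01 FPKM. All 20 erythroid markers reached 1 FPKM in both groups, with sums of 10336 to 11010 FPKM and 13075 to 16275 FPKM. Of these 20, 6 rose, 7 fell and the median log2 fold change was 0.01, while the embryonic globin HBE1 alone went from a mean of 3341 to 6720 FPKM. The 11 intestinal epithelial markers, with CDX1 and CDX2 at 0 in both groups, summed to 861 to 1003 FPKM and 1372 to 1491 FPKM, of which KRT8 and KRT18 rose from means of 490.4 to 806 FPKM and 375 to 597 FPKM, and EPCAM fell from 53.8 to 26.2 FPKM. Their part in the changes of the TNF family was not tested, and in bulk RNA fewer cells of a type and less RNA per cell cannot be told apart.

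The labelled MOLM14 libraries were examined for the 14 members with usable rows, of which 7 passed the filter, 1 ligand and 6 receptors. All 6 receptors passed the test with EVI1, 3 higher and 3 lower, and the ligand TNFSF13B did not. That is 85.7% of the 7, beside 54.2% of all 13315 rows tested and 57.3% of the 3768 tested rows with usable names. The calls of TNFRSF10A and TNFRSF8 each held in only 12 of 17 other settings. By direction the background was 27.4% higher and 26.8% lower. The median log2 fold change of the 7 was 0.33, beside -0.01 for all rows. The groups did not overlap for any of the 7, a separation seen in 61.7% of all rows. Beside the rise of the erythroid sum given above, the summed level of the 10 usable monocytic markers was 196 to 222 FPKM in control and 137 to 155 FPKM with EVI1. All 5 that were tested were called, or 100% beside the same 57.3%. LYZ, CD33, SPI1 and CSF3R fell, CSF3R passing the filter through its control libraries alone. PTPRC went the other way, from a mean of 45.7 to 69.6 FPKM (limma adjusted p = 0.0238). The part of these shifts in the changes of the members was not tested.

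TNFRSF10B had 36.8, 42.9 and 38.9 FPKM in the labelled MOLM14 control and 13.0, 14.9 and 13.6 FPKM in EVI1 libraries, a mean 2.86 times lower with EVI1. TNFRSF10B fell by 1.45 on the log2 scale there (SE 0.08, 95% interval -1.64 to -1.27, limma adjusted p = 1.2e-05). The overlapping RHOBTB2 had means of 0.778 and 1.25 FPKM. The other TRAIL death receptor, TNFRSF10A, went the opposite way, with 11.0, 14.1 and 12.5 FPKM in control and 15.1, 17.8 and 14.9 FPKM with EVI1. TNFRSF10A rose by 0.33 (SE 0.11, limma adjusted p = 0.0340), a call lost without labelled MOLM14 control replicate 1 or 3 or EVI1 replicate 2 (limma adjusted p = 0.0968, 0.0712 and 0.0990) with no filter (0.0974) and with array weights (0.0544). Their ligand TNFSF10 was low, at means of 0.672 and 0.241 FPKM.

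TNFRSF12A had 6.56, 7.31 and 6.39 FPKM in the labelled MOLM14 control and 15.1, 17.7 and 16.2 FPKM with EVI1. Every EVI1 library was above every control library, and TNFRSF12A rose by 1.16 (SE 0.09, 95% interval 0.96 to 1.36, limma adjusted p = 4.4e-05). CLDN6 overlaps TNFRSF12A on the other strand and was at most 0.517 FPKM in K562. Both TNF receptors changed in opposite directions. TNFRSF1A had 28.3, 29.8 and 33.2 FPKM in control and 20.7, 23.4 and 23.6 FPKM with EVI1 and fell by 0.42 (SE 0.08, limma adjusted p = 0.00389). TNFRSF1B had 18.8, 21.6 and 19.4 FPKM in control and 26.8, 29.7 and 27.7 FPKM with EVI1 and rose by 0.47 (SE 0.07, limma adjusted p = 0.00121). After EVI1 TNFRSF1B had the highest mean of the usable members, 28.1 FPKM, and TNFRSF10B had dropped from the first place in that order to the fifth.

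TNFRSF8 had 7.00, 7.19 and 7.23 FPKM in the labelled MOLM14 control and 5.41, 6.08 and 5.87 FPKM with EVI1. TNFRSF8 fell by 0.26 (SE 0.08, limma adjusted p = 0.0250), a call lost without control replicate 2 or 3 or EVI1 replicate 1 or 3 (limma adjusted p = 0.0652, 0.0657, 0.0766 and 0.0617) and under quantile normalisation (0.0653). TNFSF13B had 2.08, 1.85 and 1.78 FPKM in control and 2.18, 3.63 and 2.33 FPKM with EVI1, groups that did not overlap by a narrow margin. Its change of 0.34 missed the threshold (SE 0.16, 95% interval -0.04 to 0.71, limma adjusted p = 0.111), which it passed under quantile normalisation (0.0302). Of the 7 usable members below the filter, TNFSF8 and TNFSF11 were at 0 in all 6 libraries. TNFRSF9 had means of 0.306 and 0.0218 FPKM and was called lower when no filter was applied (limma adjusted p = 0.0140; 24.6% of all rows were called there). Its difference between labels was then -0.28 (limma adjusted p = 0.00845; 57.2% of genes were called). TNFSF4, TNFSF18 and TNFRSF17 had means of at most 0.161 FPKM.

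**Figure D3:**
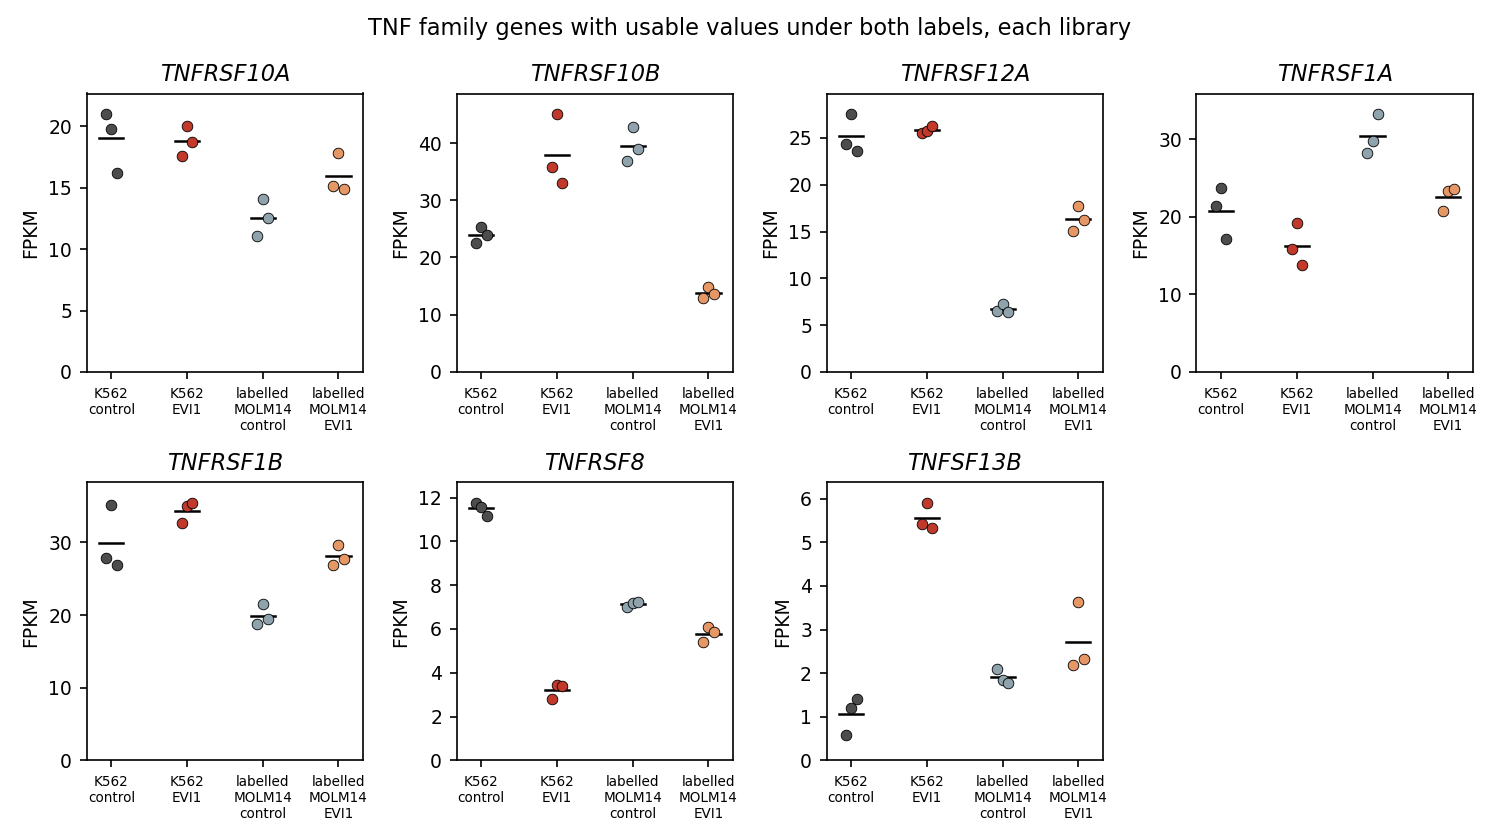
FPKM of the 7 members tested under both labels, on linear axes that start at 0, with 1 point per library and a line at the mean (n = 3 in each of the 4 groups). TNFRSF10B goes up with EVI1 in K562, from a mean of 23.96 to 38.0 FPKM, and down in the labelled MOLM14 libraries, from 39.5 to 13.8 FPKM.

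Whether the EVI1 effect itself differed between the labels was tested as an interaction over all 12 libraries. Of the 7 members tested 4 differed, 2 with a higher and 2 with a lower effect under the MOLM14 label, which is 57.1% beside 64.9% of all 3697 genes tested (34.1% higher and 30.8% lower). The median difference of the 7 was 0.27, beside 0.04 for all genes. For TNFRSF10B the effect was 2.08 lower on the log2 scale under the MOLM14 label (difference -2.08, SE 0.14, 95% interval -2.39 to -1.77, limma adjusted p = 2.2e-08), and its direction was opposite. TNFSF13B differed by -1.35 (SE 0.22, limma adjusted p = 1.0e-04), with its rise in K562 alone past the threshold. TNFRSF12A differed by 1.12 (SE 0.12, limma adjusted p = 1.2e-06) and TNFRSF8 by 1.31 (SE 0.12, limma adjusted p = 3.1e-07), the latter falling under both labels by unequal amounts. The differences of TNFRSF10A (0.34, 95% interval 0.01 to 0.67, limma adjusted p = 0.0677), TNFRSF1B (0.27, 95% interval -0.01 to 0.56, limma adjusted p = 0.0824) and TNFRSF1A (-0.08, 95% interval -0.45 to 0.29, limma adjusted p = 0.697) missed the threshold. Without K562 control replicate 3 the first and second of these passed it (limma adjusted p = 0.0159 and 0.0332), and without labelled MOLM14 control replicate 2 TNFRSF10A did (0.0315). TMM scaling also took both past it (0.0360 and 0.0493), and quantile normalisation and array weights took TNFRSF10A past it (0.0235 and 0.0143).

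**Figure D4:**
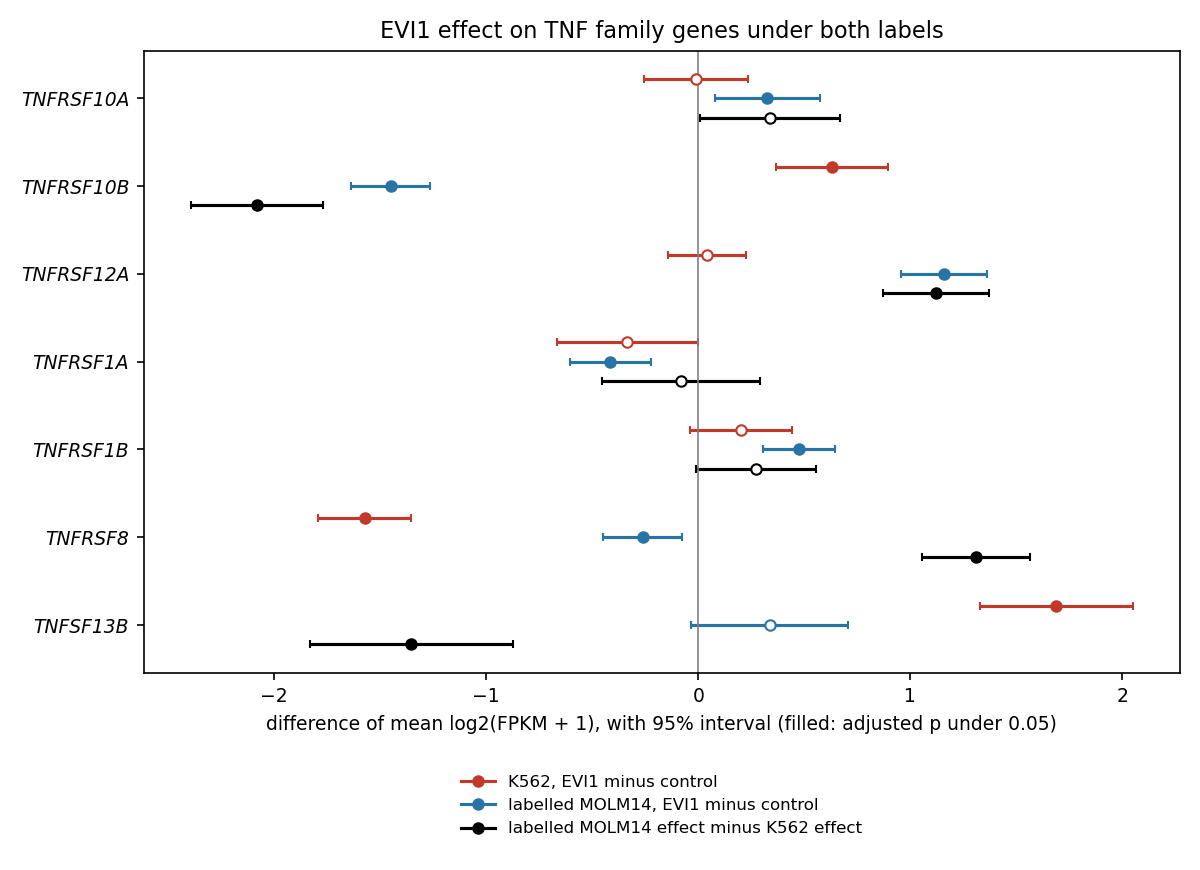
Differences of mean log2(FPKM + 1) with 95% intervals for the 7 members tested under both labels: K562 EVI1 minus control (red), labelled MOLM14 EVI1 minus control (blue) and the difference of these effects (black), from limma fits of 6, 6 and 12 libraries. Filled points have an adjusted p under 0.05, and the black points of TNFRSF10B, TNFRSF12A, TNFRSF8 and TNFSF13B are filled.

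Family members under other names were mostly low. None of 7 further ligands, TNF among them at means of 0.0489 and 0.120 FPKM, passed the filter in K562. Of 8 further receptors 3 did, and LTBR, the lymphotoxin beta receptor, fell from 38.5 ± 3.48 to 31.0 ± 1.54 FPKM in K562 (log2 fold change -0.30, limma adjusted p = 0.0193), while CD40 and RELT gave no call. LTBR rose in the labelled MOLM14 libraries from 28.9 ± 1.25 to 39.1 ± 2.72 FPKM (limma adjusted p = 0.00154), and these effects differed by 0.72 (limma adjusted p = 5.8e-05). FAS, a death receptor, was below the filter at means of 0.0495 and 0.3005 FPKM in K562 and of 0.669 and 1.09 FPKM in the labelled MOLM14 groups.

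Downstream of the death receptors, 19 of 21 genes of the signalling complex and the caspases were tested in K562, and 4 rose, 6 fell and 9 gave no call. That is 52.6%, beside the 51.9% of all genes, and the list's median log2 fold change was -0.17. CASP8, the initiator caspase, fell from 13.0 ± 1.25 to 7.07 ± 0.399 FPKM (limma adjusted p = 2.4e-04), and CFLAR, which blocks its activation, rose from 30.7 ± 2.28 to 54.8 ± 2.48 FPKM (limma adjusted p = 7.4e-05). FADD, the adaptor, had means of 22.3 and 20.1 FPKM with no call (limma adjusted p = 0.126). In the labelled MOLM14 libraries 8 were tested, 1 rose and 3 fell, or 50% beside 57.3% of tested rows with usable names. BIRC3, 1 of the 3 that fell, passed the filter there through its control libraries alone. CASP8 and CFLAR gave no call there (log2 fold changes -0.18 and -0.01, limma adjusted p = 0.0535 and 0.938), and both effects differed from those in K562, by 0.61 and -0.83 (limma adjusted p = 3.3e-04 and 2.1e-05).

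Of 26 TRAF adaptors, proximal kinases and ubiquitin factors, 25 were tested in K562, and 5 rose, 3 fell and 17 gave no call, or 32% beside 51.9% of all genes, with a median of 0.05. RNF31 and RBCK1, parts of the linear ubiquitin ligase, rose by 0.64 and 0.55 (limma adjusted p = 0.00122 and 0.00144). TRAF5 and the kinase MAP3K14 fell by 0.57 and 0.59 (limma adjusted p = 0.00113 and 0.00132). Under the MOLM14 label 10 were tested, 2 rose and 4 fell, or 60% beside 57.3% of tested rows with usable names. TRAF5 fell there too, by 0.64 (limma adjusted p = 7.1e-04), whereas MAP3K14 rose by 0.39 (limma adjusted p = 0.0161) and its effects differed by 0.98 (limma adjusted p = 1.4e-05).

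Of the NF-kB subunits and inhibitors 10 of 11 were tested in K562, and 3 rose and 1 fell, or 40% beside 51.9% of all genes, with a median of -0.08. NFKB2 rose from 16.3 ± 2.23 to 31.6 ± 2.61 FPKM (limma adjusted p = 2.4e-04), and NFKB1 fell from 7.31 ± 0.540 to 5.10 ± 0.0434 FPKM (limma adjusted p = 0.00352). NFKBIZ and the inhibitor NFKBIA rose by 0.70 and 0.30 (limma adjusted p = 0.00124 and 0.0475). Of 22 known NF-kB target genes 14 were tested, 5 rose and 3 fell, or 57.1% beside the same 51.9%, with a median of 0.31. The cytokine IL6 rose from 1.41 ± 0.304 to 6.83 ± 1.03 FPKM (limma adjusted p = 2.8e-05) and IER3, an early response gene, from 24.1 ± 2.71 to 47.5 ± 8.01 FPKM (limma adjusted p = 5.4e-04). CD83, a surface protein of mature dendritic cells, fell from 3.59 ± 0.154 to 0.520 ± 0.0517 FPKM (limma adjusted p = 6.6e-06), and TNFAIP2 from 22.6 ± 1.15 to 10.9 ± 0.204 FPKM (limma adjusted p = 2.1e-05). CD83 passed the filter in K562 through its control libraries alone. GADD45B, counted among the targets that rose in K562, passed it through its EVI1 libraries alone. For the labelled MOLM14 libraries 5 and 6 genes of these lists were tested: 1 subunit or inhibitor rose and 0 fell, or 20%, and 2 targets rose and 3 fell, or 83.3%, both beside 57.3% of tested rows with usable names. CD83 rose there by 0.38 (limma adjusted p = 0.0354), a difference of 1.97 from its effect in K562 (limma adjusted p = 4.4e-08). GADD45B, counted among the targets that fell under the MOLM14 label, passed the filter there through its control libraries alone.

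Of 6 sheddases and their regulators, which release family members from the cell surface, 5 were tested in K562. ADAM10 rose from 51.3 ± 0.486 to 66.1 ± 5.96 FPKM (limma adjusted p = 0.00619), RHBDF2 fell from 2.32 ± 0.202 to 0.887 ± 0.147 FPKM (limma adjusted p = 4.5e-04), and 3 gave no call. From this list 1 gene was tested under the MOLM14 label, with no call.

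**Figure D5:**
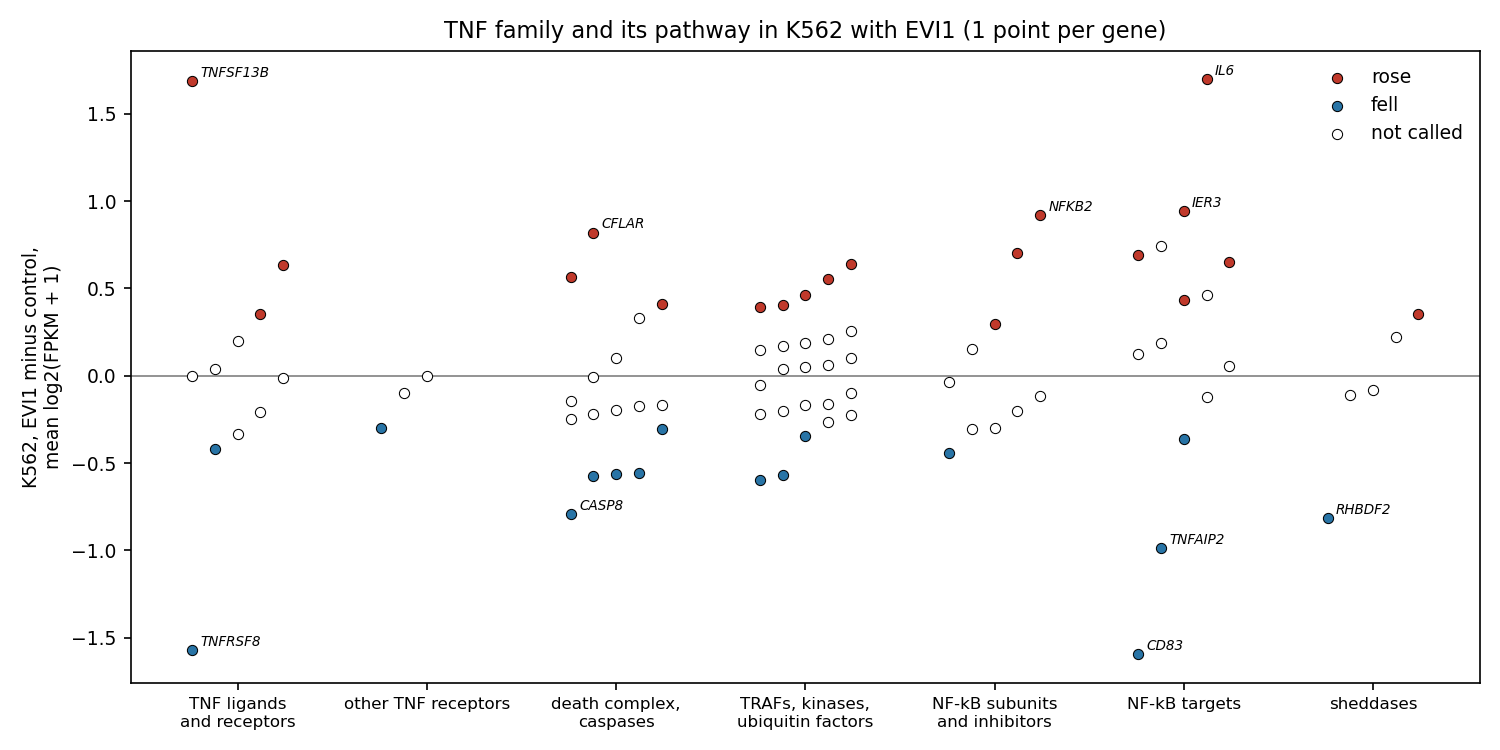
Differences of mean log2(FPKM + 1), K562 EVI1 minus control, with 1 point per gene drawn, from the family and 6 pathway lists (red, rose; blue, fell; white, adjusted p of 0.05 or more). Called genes drawn beyond 0.75 in either direction are named, and every list with more than 3 tested genes holds points on both sides of 0.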

How the data were processed

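The deposited table holds FPKM for each gene. The submitters' processing notes list STAR, Cuffnorm and Cufflinks, with builds hg38 and GRCh38, as what the authors used; versions and strand use are not given in the sources used here. Counts are not part of the deposited FPKM values, and no interval for counting error was computed. Columns were matched to samples by title. Columns of the 2 labels were compared in 275 windows of 20 rows (lowest r 0.882), and over the 500 rows from row 5511, the first identifier ending in PAR_Y, r was 0.0415. Names below it were not used for labelled MOLM14; in 95 windows of 500 rows there its control and EVI1 means still followed each other (lowest r 0.807). A row with blanks, 1 in all, was left out.

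FPKM + 1 was taken to log2 and filtered at 1 FPKM in at least 3 libraries. Each label was fitted with limma 3.58.1 (R 4.3.3) with a mean-variance trend, two-sided, with Benjamini-Hochberg adjustment over all rows of the fit; calls have an adjusted p under 0.05. The pipeline was also run on simulated data, with normal noise around the control means and few changed genes. That setting differs from these data, where 51.9% of genes tested in K562 were called, so no conclusion is drawn from it. Tables and figures used Python 3.11.15, pandas 2.3.3, NumPy 2.4.6, SciPy 1.17.1 and matplotlib 3.10.9. In the K562 libraries 85.9% to 88.6% of low values of single transcripts lay within 0.05 log2 of a whole number of fragments, which gave the depths. Positions come from GENCODE 29, which matched 29 of 32 members.

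Members, lists and tests were chosen with earlier results of these data known. Each member above the filter is given library by library and the others by mean or range. From the pathway lists FAS, FADD, CASP8, CFLAR, TNF, CD40 and LTBR are named whatever they did, with up to 4 called genes per list of largest change whose K562 groups do not overlap. Of the genes this rule takes, 2 are not reported here. RELT, GADD45B, BIRC3, and marker genes at 0, listed as present or given beside a sum, were named after their values were seen. Alternatives were pseudocounts of 0.1 and 0.5, filters, scalings, array weights, no trend, a replicate block and leaving out each library.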

Additional observations from a re-analysis of the deposited data

Results flagged for a closer look

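The EVI1 effect on 4 members differed between the labels by the interaction test over 12 libraries, with 3 in each group. On the log2(FPKM + 1) scale the effect under the MOLM14 label minus that in K562 was -2.08 for TNFRSF10B, 1.12 for TNFRSF12A, 1.31 for TNFRSF8 and -1.35 for TNFSF13B. TNFRSF10B was higher with EVI1 in 3 of 3 K562 libraries and lower in 3 of 3 labelled MOLM14 libraries than any control of the same label. The labelled MOLM14 libraries carried erythroid genes and lacked FLT3 and HOXA9 in control, and what part this has in the differences was not tested.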

How the results depend on the processing

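The 4 differences between labels were called in each of 22 settings, with TNFRSF10B between -2.18 and -1.96 and TNFSF13B between -1.90 and -1.06. In K562 the calls of TNFRSF10B, TNFRSF8 and TNFSF13B held in 17 of 17 settings, that of TNFSF9 in 16 of 16 and that of TNFSF13 in 13 of 13; without a K562 control replicate TNFSF13 missed the filter. With no filter, 9 members were called in K562 in place of 5, and 7 were with TMM, quantile normalisation or array weights (3 higher, 4 lower). Leaving out 1 library at a time, 4 to 6 members were called in K562, 4 to 5 in labelled MOLM14 and 4 to 6 for the difference. Counts over all genes are not set beside these, so they are not read as a result about the members. Rescaling to equal FPKM sums gave 4110 higher and 2178 lower genes in K562, against 3898 and 3265 as deposited, 3440 and 4051 with TMM and 3347 and 4105 with quantile normalisation; medians of all genes moved by less than 0.1.

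Uncalled values near 0 changed sign, and the cause was not tested. In K562, TNFRSF14 was 0.00425 and 0.000484 with pseudocounts of 0.1 and 0.5, 0.0425 with equal sums, 0.11 with array weights and -0.104 to 0.0944 without 1 library. TNFRSF10A was 0.054 with equal sums and -0.115 to 0.061 without 1 library. TNFRSF12A was -0.0295 with TMM and -0.00352 to 0.104 without 1 library. The difference of TNFRSF1A was 0.136 with array weights and -0.19 to 0.0419 without 1 library.

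Same-numbered libraries deviated from their group means with correlations of -0.215 to 0.126 in K562 and -0.0534 to -0.00874 in labelled MOLM14, which shows no pairing by number. With 3 libraries per group these correlations cannot exclude such a pairing. With a replicate block 6, 6 and 5 members were called in K562, labelled MOLM14 and the difference. In K562 7045 of all 13799 genes were called with the block, beside 7163 without it. For labelled MOLM14 and the difference no count over all genes is set beside the members. Their counts with the block are therefore not read as a result about the members. The added calls were TNFRSF1A in K562 (limma adjusted p = 0.0123) and the difference of TNFRSF10A (0.0381).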
